A study of Mus musculus with 32 samples.

Results

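Trimethylation of histone H3 at lysine 9 (H3K9me3) was compared at stage E16.5, in embryonic days, between 2 genotypes of fetal mouse germ cells from the testis: heterozygous for Morc1 (het) and knocked out for it (KO). The members are the called H3K9me3 peaks on the 19 autosomes: 74722 in the het list and 70487 in the KO list, together 145209 of the 581860 autosomal peaks in the 8 lists of the series. A peak was shared if 1 bp or more of it lay in a peak called in the other genotype, and otherwise het-only or KO-only. The comparison rests on 4 of the 32 samples of the series, 2 per genotype, each genotype being represented by 1 list of peak positions. The germ cells, labelled gonocytes, came from testes of animals with the Mvh-Venus transgene, a fluorescent reporter named after Mvh, an older name of the germ cell gene Ddx4. Het animals are Morc1 (+/-) and serve as the controls, and KO animals are Morc1 (-/-). The reporter is shared by both genotypes, and the construct's extent and copy number are not given in the sources used here. Nothing in the labels states whether the 2 samples of a genotype are separate animals or litters. Wild-type animals are not among the groups used here.

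H3K9me3 is the main histone mark of constitutive heterochromatin. It is written by enzymes such as SETDB1 and SUV39H1, is read by HP1 proteins, and covers transposable elements, satellite repeats and silent clusters of tandemly repeated genes. MORC1 is an ATPase of the GHKL type made in male germ cells and is known for the silencing of transposons there. Around E16.5, fetal male germ cells have stopped dividing and are laying down the DNA methylation that was erased earlier, while the piRNA pathway directs part of this methylation to young transposons. The genes named below are described by what lies inside their bodies, and a peak over a gene gives no measure of its transcription. Since the lists hold no expression and no peak height, the labelled cell type could not be checked against its markers. The only values for markers are calls over their bodies. Of 7 germ cell markers 2, Ddx4 and Tdrd9, held a call, and of the 19 markers of Sertoli, Leydig, peritubular, endothelial and macrophage cells 8 did, beside 7135 of all 20665 protein-coding genes of the autosomes.

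The largest difference between the lists in a single group of overlapping shared peaks lay over Ddx4, and 5 promoter windows are shown to give the sequences that such differences touch. Ddx4 encodes an RNA helicase of the germ cell granule, Prl2a1 a hormone of the prolactin family, Olfr1215 an odorant receptor, Prlhr the receptor of prolactin-releasing hormone and Krtap19-5 a keratin-associated protein of hair. The Ddx4 window was called in het and not in KO. Prl2a1 and Olfr1215 had the longest het-only peaks over a promoter of a protein-coding gene, of 4.31 and 3.88 kb. Prlhr and Krtap19-5 had the longest KO-only ones, of 6.22 and 3.13 kb. Each window runs from 250 bases before to 50 bases after a gene's start, in the orientation of the gene, as RefSeq gives it for GRCm38.p6 (mm10). Capitals mark CG dinucleotides, the sites of DNA methylation.
Ddx4 (chr13:112652261-112652560, minus strand): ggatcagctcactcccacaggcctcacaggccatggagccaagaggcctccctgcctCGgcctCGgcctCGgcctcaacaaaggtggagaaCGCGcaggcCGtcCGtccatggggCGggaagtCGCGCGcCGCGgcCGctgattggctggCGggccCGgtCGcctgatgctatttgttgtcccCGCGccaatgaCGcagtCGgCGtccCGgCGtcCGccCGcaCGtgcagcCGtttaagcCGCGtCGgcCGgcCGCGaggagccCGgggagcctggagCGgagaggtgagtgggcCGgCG
Prl2a1 (chr13:27801405-27801704, plus strand): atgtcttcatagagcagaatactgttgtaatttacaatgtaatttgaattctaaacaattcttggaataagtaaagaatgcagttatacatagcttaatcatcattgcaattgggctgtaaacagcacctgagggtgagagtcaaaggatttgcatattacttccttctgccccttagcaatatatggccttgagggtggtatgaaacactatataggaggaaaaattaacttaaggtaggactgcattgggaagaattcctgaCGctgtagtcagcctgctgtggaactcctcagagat
Olfr1215 (chr2:89002241-89002540, minus strand): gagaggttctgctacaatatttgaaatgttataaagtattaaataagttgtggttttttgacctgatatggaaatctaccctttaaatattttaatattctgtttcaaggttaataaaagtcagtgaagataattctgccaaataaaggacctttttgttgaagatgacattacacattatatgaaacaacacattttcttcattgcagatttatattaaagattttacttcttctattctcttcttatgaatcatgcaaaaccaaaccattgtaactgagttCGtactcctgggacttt
Prlhr (chr19:60468255-60468554, minus strand): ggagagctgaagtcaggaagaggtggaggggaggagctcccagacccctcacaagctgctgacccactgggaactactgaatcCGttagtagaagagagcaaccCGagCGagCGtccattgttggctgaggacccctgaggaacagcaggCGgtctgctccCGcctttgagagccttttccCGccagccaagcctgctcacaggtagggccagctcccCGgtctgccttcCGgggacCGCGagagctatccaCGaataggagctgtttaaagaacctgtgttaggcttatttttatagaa
Krtap19-5 (chr16:88896400-88896699, minus strand): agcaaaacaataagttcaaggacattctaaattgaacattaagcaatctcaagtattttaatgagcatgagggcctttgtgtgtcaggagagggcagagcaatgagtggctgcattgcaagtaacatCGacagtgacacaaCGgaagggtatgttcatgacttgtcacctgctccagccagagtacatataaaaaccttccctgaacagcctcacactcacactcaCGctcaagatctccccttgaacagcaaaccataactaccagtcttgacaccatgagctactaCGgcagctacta
The Ddx4 window has 38 CG dinucleotides and a GC content of 72%. The windows of Prl2a1 and Olfr1215 have 1 CG each, that of Krtap19-5 has 4 and that of Prlhr has 12. Over all 31396 promoter windows of the table the median was 7.

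Peaks present in 1 list only were more numerous in het. The het list held 10198 het-only peaks, 13.6% of its peaks (95% Wilson interval 13.4 to 13.9%). The KO list held 4738 KO-only peaks, 6.72% (6.54 to 6.91%). These intervals cover counting error only, and neighbouring peaks are not independent. With 1 list per genotype there is no replicate error, so none of the differences between the genotypes has a test. The lists give no read depth, and a mark lost in some cells and a weaker mark in all cells cannot be told apart. The order held on each of the 19 autosomes. Het-only peaks took between 12.2% of het peaks (chromosome 7) and 15.6% (chromosome 14), and KO-only peaks between 5.63% of KO peaks (chromosome 3) and 7.82% (chromosome 14). The number of het-only peaks per KO-only peak ran from 1.73 on chromosome 7 to 2.56 on chromosome 3. The lists also differ in size. With the het list cut to the 70487 peaks of the KO list by leaving out its shortest, het-only peaks numbered 7988 and KO-only peaks 6684. The KO list stayed whole, so this cut can only lower the het-only count and raise the KO-only count. All peaks cut were of 1001 bp. They were taken from the autosomes sorted last by name, among them chromosome 7, and not evenly. The part of list size in the gap between the counts was thus not tested.

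**Figure D1:**
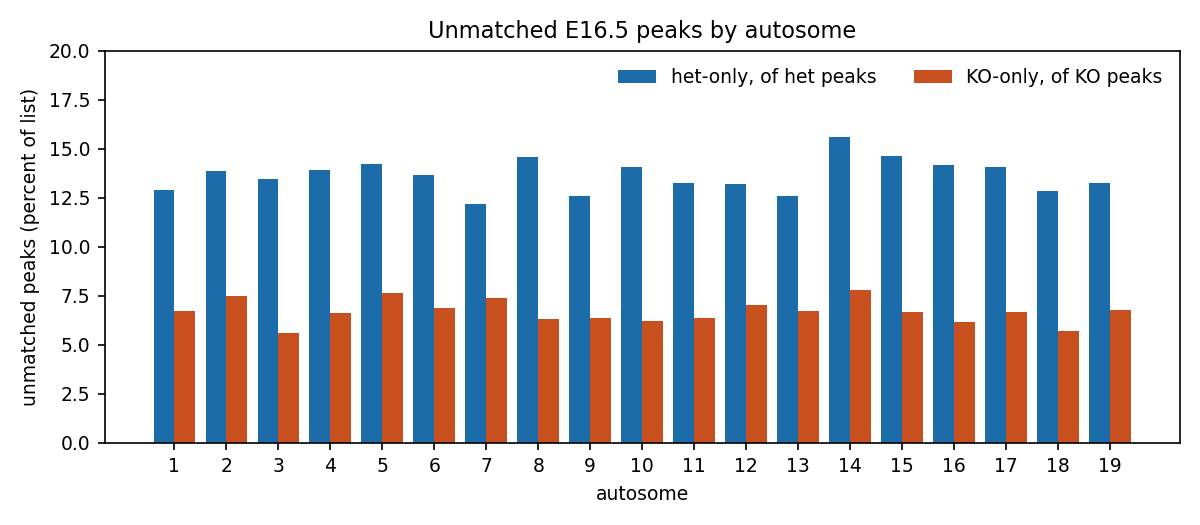
Share of unmatched peaks per autosome at E16.5, in percent of the peaks of the list on that autosome; blue bars are het-only peaks and orange bars KO-only peaks. On each of the 19 autosomes the blue bar (12.2 to 15.6%) is above the orange bar (5.63 to 7.82%).

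Unmatched peaks were the short peaks of both lists. The median width was 1001 bp for het-only and for KO-only peaks, against 2792 bp for shared peaks of the het list and 2555 bp for those of the KO list. The shortest width in the lists, 1001 bp, was also the most common. It was the width of 61.0% of het-only and 73.8% of KO-only peaks, and of 8.56% and 12.3% of the shared peaks of the het and KO lists. The share of peaks without a counterpart fell with width in both lists. In het it was 53.0% at 1001 bp, 9.76% from 1.5 to 2 kb, 1.69% from 3 to 5 kb and 0.0609% (3 of 4929) at 10 kb or more. In KO it was 30.1%, 2.82% and 0.321% in the first 3 of these classes. At 10 kb or more it was 0 of 4351, with an upper interval bound of 0.0882%. In each of these classes the share was larger in het. Unmatched peaks of 3 kb or more numbered 291 in het and 52 in KO, and those of 5 kb or more 44 and 8.

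Unmatched peaks stood about as far from other peaks as shared peaks do from each other. The gap from a het-only peak to the nearest KO peak had a median of 8.16 kb (quartiles 3.80 and 18.6 kb), and the gap from a KO-only peak to the nearest het peak one of 7.73 kb (3.24 and 18.8 kb). Between a shared peak and the next shared peak of its own list the median was 7.12 kb in het and 7.05 kb in KO. Within a list, neighbouring peaks were never closer than 1499 bp. To the nearest shared peak of the same list, the median gap was 8.88 kb for het-only and 9.82 kb for KO-only peaks, and 31.0% of het-only (30.1 to 31.9%) and 28.2% of KO-only peaks (26.98 to 29.5%) lay within 5 kb of one. Of shared peaks, 35.5% in het and 35.9% in KO lay within 5 kb of another shared peak, so these shares are a little below those of shared peaks. Within 1 kb of a het peak lay 279 KO-only peaks, 5.89% of their class (5.25 to 6.60%). Within 1 kb of a KO peak lay 279 het-only peaks, 2.74% (2.44 to 3.07%). The counts are equal, and the shares differ because the classes differ in size. Of these peaks, 201 KO-only and 206 het-only ones had an unmatched peak of the other list within that distance. Most of these near misses thus set 1 unmatched call beside another.

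**Figure D2:**
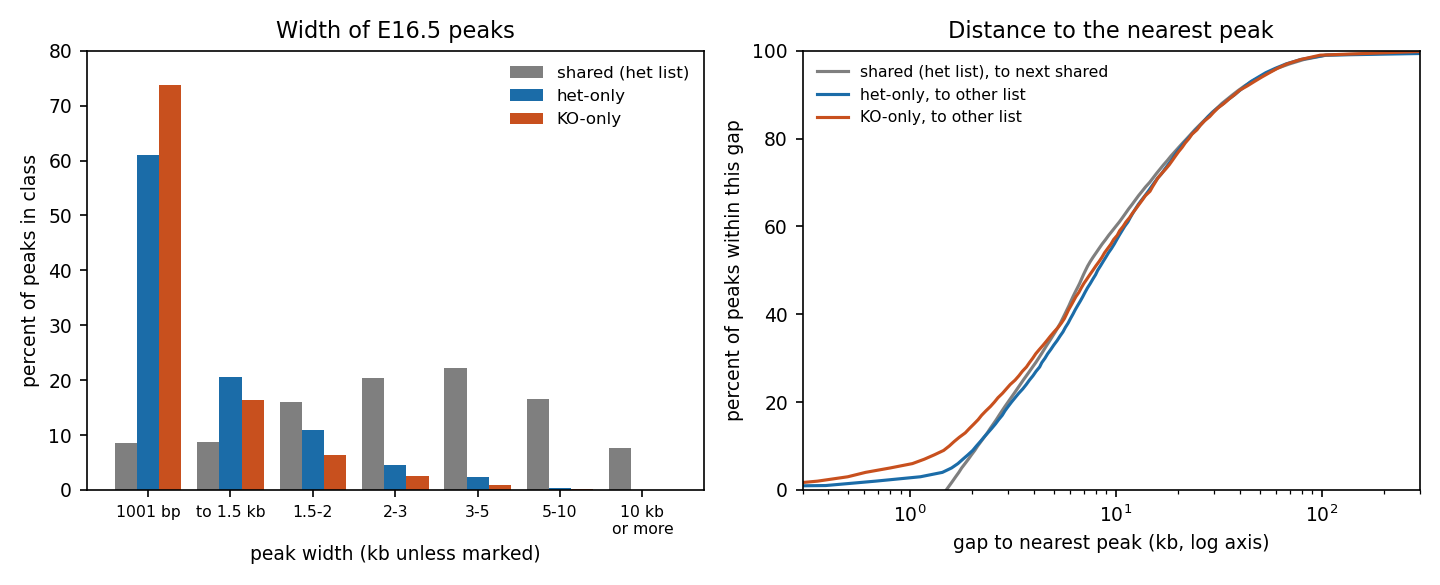
Left, share of peaks in each width class for shared peaks of the het list (grey), het-only (blue) and KO-only peaks (orange); right, cumulative share of peaks by gap to the nearest peak of the other list, or to the next shared peak for shared peaks, on a log axis in kb. Unmatched peaks are concentrated at 1001 bp, while their gap curves lie close to that of the shared peaks, with medians of 8.16, 7.73 and 7.12 kb.

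Unmatched peaks were mostly single, being a small part of each list. A peak was slightly more often unmatched after an unmatched peak than after a shared one. Going along a chromosome, the peak after a het-only peak was again het-only in 17.2% of cases (16.504 to 17.97%), against 13.1% (12.8 to 13.3%) after a shared peak. For KO-only peaks the shares were 8.26% (7.51 to 9.08%) and 6.61% (6.42 to 6.80%). Runs of 1 peak made up 83.2% of the 8442 runs of het-only peaks and 91.7% of the 4347 runs of KO-only peaks. Runs of 3 or more numbered 246 in het and 29 in KO. The longest het runs held 7 peaks. Both lay on chromosome 3 between genes: chr3:73966395-74113815, between Bche (butyrylcholinesterase) and Gm6098, and chr3:77949340-78013572, between Fstl5 and Rapgef2. The longest KO runs held 4 peaks, 1 at chr7:60335154-60422762 in the imprinted gene Snrpn and the other at chr14:107912669-107999108 between Trim52 and Slitrk1.

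The larger part of the difference in length lay inside shared peaks. The lists covered 292.6 Mb in het and 268.7 Mb in KO, with 249.3 Mb in both. Of the 43.3 Mb called in het only, 30.1 Mb lay inside shared peaks and 13.2 Mb (30.5%) in het-only peaks. Of the 19.4 Mb called in KO only, 13.9 Mb lay inside shared peaks and 5.48 Mb (28.3%) in KO-only peaks. Groups of overlapping shared peaks numbered 63601. They were longer in het in 38227 cases, longer in KO in 21779 and equal in 3595, with a median difference of 113 bp in favour of het. Differences of 5 kb or more were rare: 303 groups were that much longer in het and 29 in KO. Splitting went the same way, since 1936 shared het peaks (3.0%) overlapped 2 or more KO peaks, against 877 shared KO peaks (1.3%) that overlapped 2 or more het peaks. With 3 or more counterparts the counts were 171 and 42. The split het peaks were long, with a median of 11.1 kb.

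The 2 regions with the largest single differences were a domain over Ddx4 and Slc38a9 and an interval between Gm6098 and Zbbx. Slc38a9 encodes a lysosomal amino acid transporter. In het, 3 peaks covered 110.9 kb of the 115.2 kb at chr13:112598042-112713278, which holds the body of Ddx4 and most of that of Slc38a9. In KO, 12 peaks covered 21.5 kb of it. The largest het peak of the region, 84.5 kb long, faced 10 KO peaks with 18.5 kb in all, the largest difference of any shared group, and a neighbouring het peak of 16.8 kb faced 1 KO peak of 1.99 kb. Within the Ddx4 body the called length was 49.97 kb in het and 6.79 kb in KO, and within Slc38a9 57.1 and 13.55 kb. All of these het peaks counted as shared, so the region added nothing to the number of het-only peaks. At E13.5 the region held 109.0 kb (het) and 106.7 kb (KO), at postnatal day 0 (P0) 26.0 and 28.9 kb, and at postnatal day 3 (P3) 109.3 and 64.4 kb. The E16.5 KO list was the lowest of the 8, and both P0 lists were also low. The Ddx4 promoter window printed above was covered in full in each list but that of E16.5 KO. The reporter carries the name of this gene, and calls from a transgene copy and from the Ddx4 locus itself cannot be told apart in these lists.

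Between Gm6098 and Zbbx, 2 neighbouring het-only peaks of 37.63 and 38.02 kb filled 75.6 kb of the 77.3 kb at chr3:74643399-74720653. No KO peak lay in it, and the nearest KO peaks lay 4.55 kb to the left and 6.999 kb to the right. Both are the longest unmatched peaks of either list. The interval holds no protein-coding gene, and the nearest are 311 kb (Gm6098) and 317 kb (Zbbx) away. The other 6 lists called between 66.2 and 75.6 kb of it, KO lists included: the KO length was 75.6 kb at E13.5, then 69.6 kb (P0) and 68.6 kb (P3). The E16.5 KO list was thus the only one of the 8 without a call there. The lists do not show how well reads covered the interval in either genotype, and the coverage of the H3 libraries was not used here. The next longest het-only peak, 18.6 kb on chromosome 18 between Dok6 and Tmx3, had the same pattern, with 12.5 to 17.0 kb in each of the other 6 lists.

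**Figure D3:**
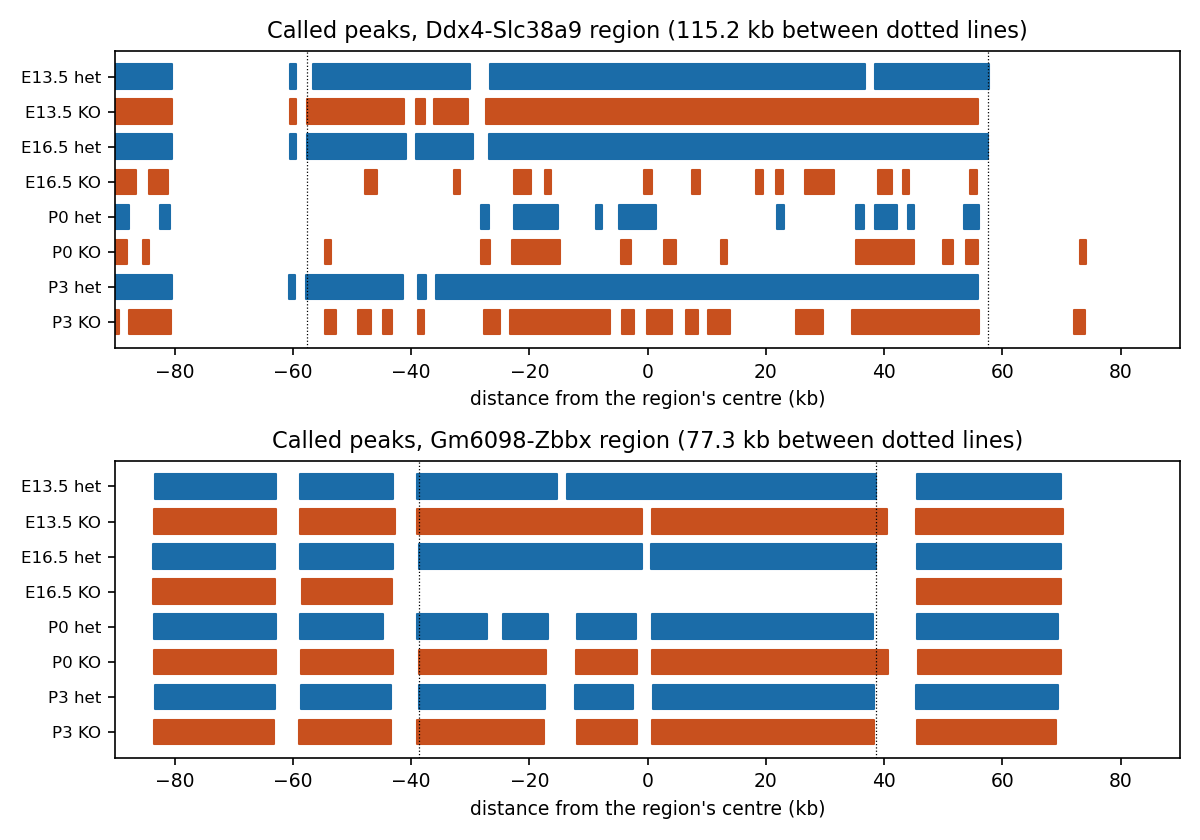
Called peaks of the 8 lists over the Ddx4 and Slc38a9 domain (top, 115.2 kb between the dotted lines) and the interval between Gm6098 and Zbbx (bottom, 77.3 kb), by distance from the region's centre in kb; blue bars are het and orange bars KO. The E16.5 KO row is broken into short pieces at the top, as are both P0 rows, and is empty between the dotted lines at the bottom.

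Of the other 7 among the 10 longest het-only peaks, 4 had at most 4.004 kb in any list of another stage, and 3 were called over most of their length at other stages. A peak of 8.55 kb inside Galntl6, of the family of enzymes that start mucin-type sugar chains, had no call in any other list. A peak of 7.86 kb inside Csmd1 faced 1.00 kb in P3 KO and nothing elsewhere. Peaks of 8.90 and 7.78 kb lay between the cadherin genes Cdh8 and Cdh11, where the other stages' lists called at most 4.004 and 1.001 kb. Among the 10 longest KO-only peaks, from 4.75 to 7.93 kb, 9 were called in part or whole in at least 4 of the 6 lists of other stages. The longest, 7.93 kb between Tpbg and Ube2cbp on chromosome 9, was covered by 2.39 to 7.93 kb in each of those lists. The longest within genes were 6.98 kb in Sema3c (a secreted axon guidance cue), 6.59 kb in Fam126a (hyccin, needed for myelin) and 6.22 kb in Prlhr, over the promoter window printed above.

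Shared groups that were longer in KO differed by less than those longer in het. Over Orc6, a subunit of the complex that marks replication origins, KO had 16.7 kb and het 6.42 kb. Over Ceacam13, of a family of immunoglobulin-like genes, the lengths were 16.7 and 7.18 kb. The odorant receptor genes Olfr1496 and Olfr1497 lay in a group with 37.1 kb in KO and 29.2 kb in het. The het minus KO difference of these 3 ran from -10.3 to -7.90 kb, against 14.8 to 66.0 kb for the 5 groups with the largest difference in favour of het.

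KO-only peaks lay in genes more often than het-only peaks. By the midpoint, 32.2% of KO-only peaks (30.9 to 33.5%) fell in a protein-coding gene body, against 26.9% of het-only peaks (26.0 to 27.7%) and 25.1% of shared het peaks (24.8 to 25.4%). Gene bodies make up 40.5% of the length between the first and last gene of the autosomes, so each class lay below that yardstick. Width moves with this measure. Among peaks of 1001 bp alone the shares were 31.8% for KO-only, 27.6% for het-only and 30.0% for shared het peaks. At equal width the het-only peaks were therefore the least genic of the 3 classes, and KO-only peaks stood close to the shared ones. Genes of 500 kb or more held 7.88% of het-only and 6.94% of KO-only peaks, beside 6.17% of shared het peaks. They make up 7.41% of the length between the first and last gene of the autosomes. Gene deserts, intervals of 1 Mb or more without a protein-coding gene, took up 32.3% (31.4 to 33.2%) of the het-only class. They took up 24.7% (23.5 to 25.9%) of the KO-only class, with 27.8% of shared het peaks between them. Deserts make up 19.5% of the length between the first and last gene, so each class lay above that yardstick. The desert shares were not matched for width. Outside genes, the median distance to the nearest gene was 147 kb for het-only, 98.2 kb for KO-only and 108 kb for shared het peaks.

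The intervals with the most het-only peaks were wide gene deserts. The interval between Khdrbs3 and Fam135b on chromosome 15 (2.34 Mb) had 52 het-only and 6 KO-only peaks, and its called length was 824 kb in het and 547 kb in KO. It holds the shared group with the second largest difference, 53.1 kb in het against 21.5 kb in 7 pieces in KO. Next came 2 intervals on chromosome 14 with 50 het-only peaks each, 1 from Olfm4 to the protocadherin gene Pcdh17 and the other between the protocadherin genes Pcdh20 and Pcdh9. The same pair led the count of KO-only peaks, with 20 and 28. They are 4.42 and 4.54 Mb wide. Per Mb, the Pcdh20 to Pcdh9 interval held 11.01 het-only and 6.16 KO-only peaks, and the Khdrbs3 to Fam135b interval 22.2 and 2.57. The unmatched peaks between Khdrbs3 and Fam135b were thus mostly het-only, while the protocadherin intervals held many of both kinds. The intervals were ranked by count, which favours wide ones, and the rate per Mb over all autosomes is not given here.

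Per gene, more bodies were touched by het-only than by KO-only peaks. Of 20665 protein-coding genes, 1755 (8.49%) had a het-only peak in the body and 1222 (5.91%) a KO-only peak, and 459 had both. With the het list alone cut to the size of the KO list, 1396 genes had a het-only and 1584 a KO-only peak. That cut can only lower the first count and raise the second, so the turned order is in part set by it. Called length was larger in het in 4315 genes (20.9%) and in KO in 2232 (10.8%). Of the 7135 genes with a call in either list, 509 were called in het alone and 322 in KO alone. The tails were unequal: 63 genes had 10 kb or more in favour of het and 1 gene in favour of KO. Large numbers of het-only peaks were concentrated in few genes: 1313 of the 1755 had exactly 1 het-only peak, and 15 had 10 or more. No gene had 10 or more KO-only peaks, and 16 had at least 5.

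The difference grew with gene length. Of the 216 genes of 500 kb or more, which were all called, 195 had more length in het and 21 in KO, with a median difference of 4.40 kb. Their summed length in KO was 0.882 of that in het. The ratio was 0.918 in genes of 200 to 500 kb, 0.926 in those of 50 to 200 kb and 0.945 in those under 50 kb. On the autosomes as a whole it was 0.918, and in intergenic intervals of 1 Mb or more 0.907.

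The genes with the most het-only sequence were long: the median length of the first 10 was 1389.5 kb, against 17.5 kb over all genes. Csmd1, which encodes a membrane protein with complement control domains, held 31 het-only peaks with 63.7 kb, and its called length was 551 kb in het and 387 kb in KO. Its length in the other 6 lists lay between 320 and 463 kb, so that het at E16.5 was the highest of the 8 lists and KO lay within the range of the rest. Ptprd, a receptor tyrosine phosphatase of synapses, held 29 het-only peaks with 40.2 kb, and 297 kb were called in het against 216 kb in KO. Nrg3, a neuregulin ligand of the ERBB4 receptor, had 279 kb in het and 182 kb in KO, with 84.9 to 167 kb at the other stages. Dpp10, an accessory subunit of Kv4 potassium channels, had 425 kb against 354 kb. Naaladl2 had 377 kb against 318 kb, and Khdrbs2, an RNA-binding splicing regulator, 286 kb against 235 kb. In 9 of the 10 genes with the largest difference in favour of het, the het list was the highest of the 8. In 6 of the 10 the KO list was also above all lists of the other stages. For the 63 genes with 10 kb or more in favour of het, het was the highest list in 21, and KO lay within the range of the other stages in 50. Among the 10 genes with the largest difference in favour of KO, the KO list was the highest in 5. All of these genes were chosen by their E16.5 lengths, so a high rank of the favoured list is in part set by the choice.

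Genes with more length in KO differed by less. Mgat4c, a glycosyltransferase gene, had 90.9 kb in KO and 76.5 kb in het, the largest difference of this kind. Fam126a had 12.7 kb against 4.54 kb, through 2 KO-only peaks with 8.19 kb. Sema3c had 22.0 kb against 15.03 kb and Sema3d 22.9 kb against 17.6 kb. The het minus KO difference of Sema3d was -5.30 kb, and -9.99 kb with the het list alone cut to the size of the KO list. Slit3, the ligand of ROBO guidance receptors, had 5 KO-only peaks, with 26.4 kb against 20.04 kb. Gse1 had 17.3 kb against 10.1 kb and Brinp3 37.3 kb against 30.7 kb. A26c3 had 28.8 kb against 23.3 kb. The chemoreceptor genes Olfr722 and Vmn2r65 completed the 10, with 7.68 against 2.06 kb and 17.0 against 11.6 kb. Their calls were all in shared peaks.

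Much KO-only sequence lay in genes that nonetheless had more length in het. Marchf1, a ubiquitin ligase that lowers MHC class II at the cell surface, held the most, 7 KO-only peaks with 10.5 kb, and 93.5 kb were called in het against 91.1 kb in KO. With the het list alone cut to the size of the KO list, this difference of 2.36 kb became -4.65 kb. That cut takes length from het only, so the change of sign is in part set by it. Cdh12 had 7 KO-only and 11 het-only peaks. Lingo2 had 8 and 10, Lrp1b (of the LDL receptor family) 6 and 7, Khdrbs2 6 and 9. Snrpn (6 and 2) and Magi2 (6 and 2) had more KO-only than het-only peaks, and still 6.67 and 1.76 kb more in het. With the same cut of the het list these differences were 3.67 and 0.755 kb.

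**Figure D4:**
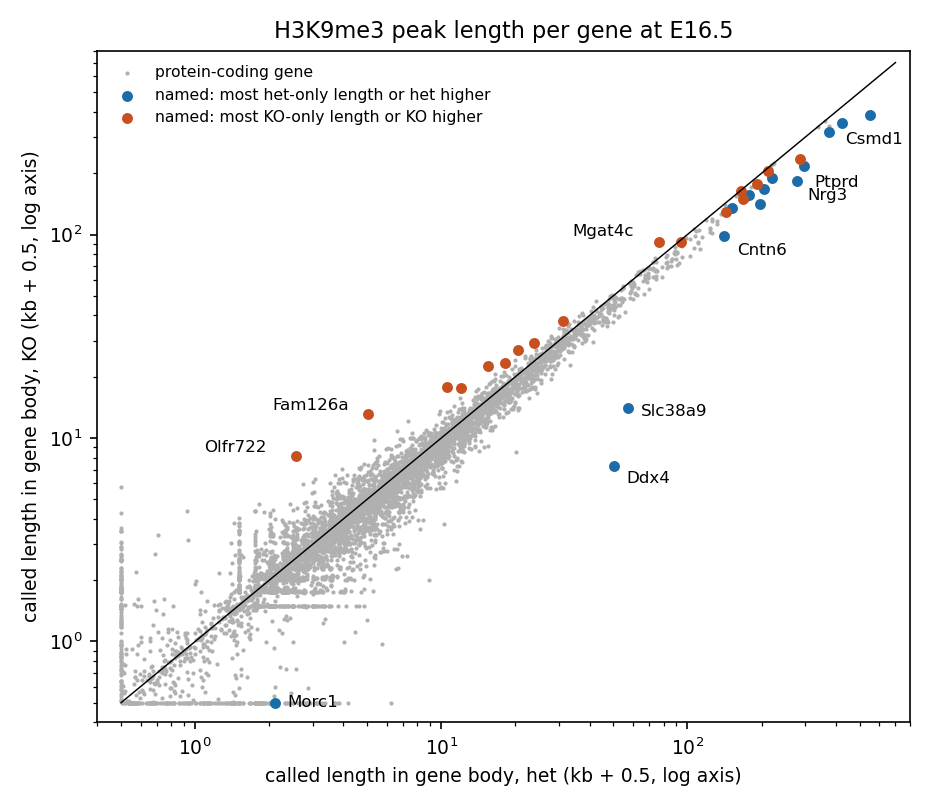
Called H3K9me3 length in the body of each protein-coding autosomal gene with an E16.5 call, het (x) against KO (y), both in kb plus 0.5 on log axes; the line marks equal length, and coloured points are the named genes. Ddx4 (49.97 against 6.79 kb) and Slc38a9 (57.1 against 13.55 kb) stand apart below the line, and Csmd1 lies at the upper right with 551 against 387 kb.

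Morc1 itself, at chr16:48431237-48630905, held a single het-only peak of 1.62 kb and no KO call at E16.5. At E13.5 its body had 2.002 kb (het) and 1.56 kb (KO), at P0 3.47 kb and no call, and at P3 3.21 and 1.00 kb. Called length cannot show whether the gene is deleted, and a few short peaks do not check the genotype labels.

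Among the lists of germ cell and chromatin genes, the piRNA pathway leaned to het. Of 22 genes 13 were called, 11 with more length in het and 2 in KO. The median difference of the called genes was 0.368 kb, beside 0.203 kb over all called genes. Of those 7135 called genes, 4315 had more in het and 2232 in KO. Ddx4 accounts for most of the summed difference, 43.2 kb, the list having 101.4 kb in het and 53.3 kb in KO. Tdrd6, a Tudor protein of the germ cell granule, had 4.31 kb in het and 1.58 kb in KO. Gtsf1, a cofactor of PIWI proteins, had 1 het-only peak of 1.00 kb, and Tdrd1 had 1.83 against 1.00 kb. The helicase gene Mov10l1 went the other way, with 15.7 kb in het and 16.9 kb in KO. Of 31 genes of the germline and meiosis list 8 were called, 5 more in het and 3 in KO. Dmc1, the meiotic recombinase, held a het-only peak of 5.76 kb and no KO call, while its body was called in each of the other 6 lists, with 1.55 to 6.28 kb. Sycp1, of the synaptonemal complex, had 3.67 against 2.27 kb. Hormad1 held a single KO-only peak of 1.00 kb. Of the 24 genes of H3K9 methylation and heterochromatin 9 were called, 4 more in het and 4 in KO, and none differed by more than 2.16 kb (Morc2b, 5.09 against 2.93 kb). In the DNA methylation list 2 of 8 genes were called, Tet1 through a KO-only peak of 1.00 kb and Tet3 with 3.91 kb in KO and 3.67 kb in het.

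Of 30 imprinted genes 16 were called, 13 with more length in het and 3 in KO, at a median of 0.800 kb. Over all 7135 called genes, 4315 had more in het and 2232 in KO, at a median of 0.203 kb. Snrpn had 212 kb in het and 205 kb in KO, with Snurf inside the same unit at 19.4 and 14.5 kb. Kcnq1 had 50.5 against 48.5 kb and Rasgrf1 10.3 against 8.73 kb. Usp29 had more in KO, 7.18 against 5.97 kb. In the list of spermatogonial stem and progenitor genes, 4 of 12 were called, and 3 of them had more in KO. Zbtb16, the transcription factor PLZF, held 2 KO-only peaks, with 9.42 kb in KO and 7.74 kb in het. Gfra1, the GDNF receptor, had 2.70 kb in het and 2.68 kb in KO.

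Among families of cell adhesion and channel genes, the counts ran from one-sided in contactins to even in protocadherins. All 12 called members of the 13 contactins and contactin-associated genes had more length in het, at a median of 6.91 kb. Cntn6 had 141 kb in het and 97.9 kb in KO, with 10 het-only peaks and no KO-only peak. Cntnap5a had 112 against 84.2 kb, Cntnap5c 123 against 108 kb and Cntnap2 179 against 162 kb. All 7 called genes of the Slitrk, Lrrtm and Lrfn families of synaptic adhesion had more in het, led by Lrfn5 with 60.5 against 50.8 kb and Lrrtm4 with 62.5 against 54.3 kb. Cadherins outside the protocadherins had 15 genes with more in het and 4 in KO, led by Cdh18 with 196 against 141 kb. Potassium channel genes had 43 and 10, led by Kcnip4 with 85.5 against 73.2 kb. Over all 7135 called genes, 4315 had more length in het and 2232 in KO. The median gene length was 401 kb for contactins and 148 kb for these cadherins. It was 34.5 kb for potassium channels and 10.9 kb for the Slitrk, Lrrtm and Lrfn list, against 17.5 kb over all genes. These medians include genes without a call, and length moves with the difference as shown above. Whether the families differ from other genes of their length was not tested. Protocadherins, many of them in a shared cluster whose gene models overlap, had 24 genes on each side.

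Counts in clusters of repeated genes ranged from even to in favour of het, beside 4315 genes in het and 2232 in KO over all 7135 called genes. Of the lists below, only defensins had a higher ratio of het to KO genes than that. Lists not described further also had higher ratios. Speer, oocyte and embryo clusters had 11 genes in het and 4 in KO of 19 called. Immunoglobulin-like Skint and Ceacam genes had 16 and 7 of 26. Olfactory receptor genes had 104 with more length in het and 64 in KO of 400 called, with a median difference of 0. Olfr292 had 5.22 kb in het and 0.477 kb in KO, and no call at any other stage. Vomeronasal receptors had 61 and 35 of 153, led by Vmn2r94 with 27.6 against 20.2 kb. Zfp zinc finger genes had 77 and 58 of 137, and 21 genes each were touched by het-only and by KO-only peaks. Zfp445, a regulator of imprinting, had 21.5 kb in het and 18.3 kb in KO, while Zfp616 had 13.6 and 17.0 kb. Cytochrome P450 genes had 34 and 18 of 55, from Cyp2b13 with 8.40 against 1.51 kb to Cyp3a59 with 32.5 against 35.8 kb. With the het list alone cut to the size of the KO list, the summed difference of the Zfp and cytochrome P450 genes was -12.9 and -3.06 kb. That cut takes length from het only, and not evenly over the autosomes, so these signs are in part set by it. Defensins, antimicrobial peptides of epithelia, had 14 and 3 of 18, with Defb33 at 3.54 against 0.491 kb and Defb1 at 2.12 kb against no call. Serpins had 14 and 9 of 24, and C-type lectins 18 and 17 of 37. Genes with near-identical copies share reads, and how the authors treated such reads is not given in the sources used here.

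Few promoter windows were touched by unmatched peaks. Het-only peaks overlapped 84 of 31396 promoter windows (0.268%) and KO-only peaks 53 (0.169%), while shared het peaks overlapped 1584 (5.05%). The 3 classes cover 13.2, 5.48 and 279.5 Mb, and these shares move with that length. Per Mb, unmatched peaks touched no fewer windows than shared het peaks. The median number of CG dinucleotides was 2 in windows under het-only peaks, as in those under shared het peaks, 4 under KO-only peaks and 7 over all windows. None of the het-only windows had 10 or more, against 6.25% of the shared het, 9.43% of the KO-only and 44.0% of all windows. Protein-coding genes numbered 38 on the het-only side, of which 17 encode olfactory, vomeronasal or taste receptors, and 25 on the KO-only side, of which 6 do. Such receptors make up 7.84% of the genes with a window and 44.4% of the genes with a shared peak over a promoter. The Prl2a1 window, shown above, was called in het at E16.5 and in no other list. The Olfr1215 window was also called in P0 KO. Of the KO-only windows, that of Prlhr was also called in E13.5 het and that of Krtap19-5 in part in P0 KO. By contrast, the window of Ffar2, a receptor of short-chain fatty acids, with 11 CG, was called in each list but E16.5 het and P3 KO. Of 919 miRNA hairpins, 1 (Mir6419) lay in a het-only peak and none in a KO-only peak, while 54 lay in shared het peaks.

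The lists of other stages gave the only separate readout of the same positions. Of het-only peaks, 38.02% (37.1 to 39.0%) were called in none of the 6 lists of E13.5, P0 and P3. The share was 30.9% of KO-only peaks (29.6 to 32.3%) and 4.55% of shared het peaks. Shared het peaks are also wider, with a median of 2792 bp against 1001 bp, and these shares were not matched for width. In all 6 lists were 117 het-only peaks (1.15%), 93 KO-only peaks (1.963%) and 48.1% of shared het peaks. Calls at P0 were the most frequent. At P0, 28.3% of het-only positions were called in both genotypes, 9.36% in het alone, 11.2% in KO alone and 51.0% in neither. At P3 the shares were 21.0, 9.30, 10.4 and 59.2%, and at E13.5 8.10, 2.47, 6.59 and 82.8%. A het-only position of E16.5 was thus called in KO alone more often than in het alone at each other stage. KO-only positions went the same way: 6.94% were called in het alone and 12.5% in KO alone at P0, 6.29 and 10.7% at P3, and 4.28 and 6.78% at E13.5. In each of those 3 stages the KO list holds more peaks than the het list, which moves with these shares in both classes. Over the 3 stages, 39.8% of het-only and 50.3% of KO-only positions were called in lists of both genotypes.

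**Figure D5:**
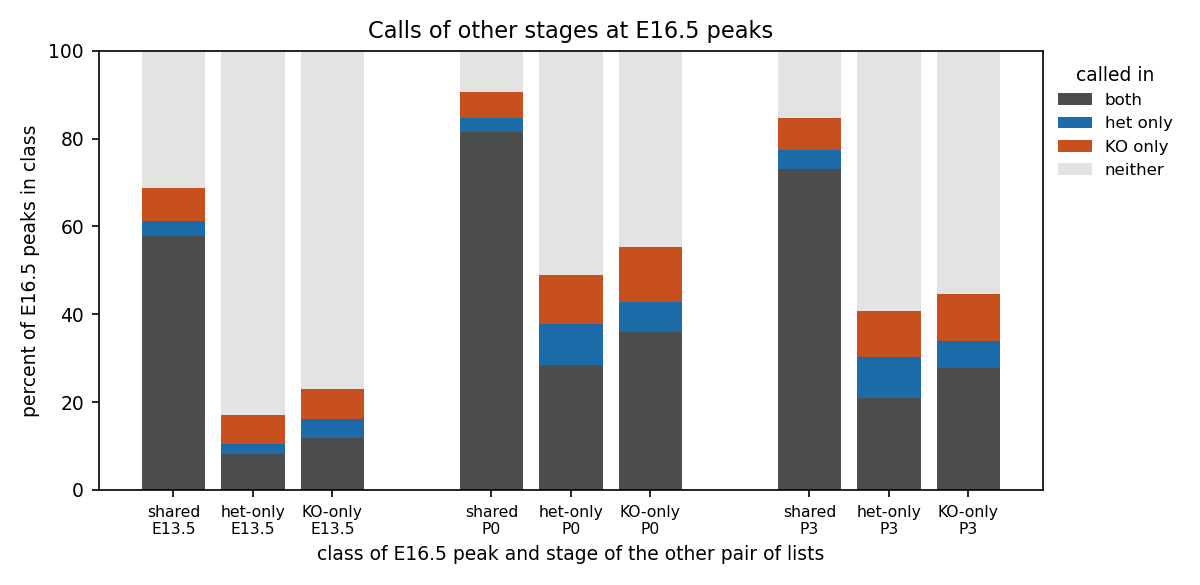
Share of E16.5 peaks (shared peaks of the het list, het-only, KO-only) that were called at E13.5, P0 and P3 in both genotypes, het only, KO only or neither, in percent of the class. Among het-only peaks the grey part for neither takes 82.8% at E13.5, 51.0% at P0 and 59.2% at P3, and the orange part for KO only is larger than the blue part for het only at each stage.

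Width made little difference to this in het and more in KO. Of het-only peaks of 1001 bp, 58.6% (57.4 to 59.8%) were called in at least 1 list of another stage, and of those of 3 kb or more 63.9% (58.3 to 69.2%). Of KO-only peaks the shares were 66.2% (64.7 to 67.8%) and 84.6% (72.5 to 92.0%), the last resting on 52 peaks. Set beside the other stages, E16.5 was the pair in which het had more unmatched peaks than KO: the het lists had 5701, 9541 and 10637 unmatched peaks at E13.5, P0 and P3, and the KO lists 11843, 17423 and 16975. The shared het peaks split into 2 or more KO peaks also outnumbered the reverse at E16.5 alone, since at the other stages the KO list had more split peaks (1456 against 464, 2240 against 1397, and 2349 against 1104). Each of these comparisons uses its own pair of lists, none has a replicate, and the differences between the stages were not tested.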

How the data were processed

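Chromatin immunoprecipitation with an H3K9me3 antibody of Active Motif, from cells fixed in formaldehyde and sonicated, was followed by sequencing from a low-input library kit, per the labels' protocols. The authors deposited 1 list of peaks per genotype and stage, in 3 columns: chromosome and the start and end positions in bp, with no height, score or p-value. Per the submitters' processing notes, bcl2fastq 2.20, cutadapt 1.18, Bowtie2 2.3.4.1, deepTools 3.5.0, HOMER 4.10 and the build mm10 were used. Which of them called the peaks, with what threshold, whether the H3 libraries served as control and how the 2 samples of a group were combined is not given in the sources used here. The lists were assigned to their groups by the stage and genotype they name. The H3 samples entered no comparison. Read depth is unknown, and peak number and length depend on it.

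Overlap was computed with numpy 2.4.6 and pandas 2.3.3 in Python 3.11.15 and tested on simulated intervals. Autosomal peaks entered the comparison, and 2 mitochondrial peaks of the het list were left out. Genes, promoter windows and miRNA hairpins came from RefSeq for GRCm38.p6, which is the mm10 build, and no genome sequence was used here. A called length is the number of bp of a gene body or region inside peaks. Intervals are 95% Wilson intervals (scipy 1.17.1), which cover counting error only. Coordinates are 1-based. Gene lists were described by counts and medians. Named were Morc1 and, in each direction, the 10 genes with the most unmatched length, the 10 with the largest difference in called length, the 10 longest unmatched peaks, the 5 intervals with the most unmatched peaks, the 5 shared groups with the largest difference, the 5 longest unmatched peaks over a promoter and up to 4 members per gene list. Not all of these are printed. The peaks compared, the gene lists and the measures were chosen with earlier results of these data known. Alternatives changed the overlap rule, the number and width of peaks, the distance limit and the extent of genes.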

Additional observations from a re-analysis of the deposited data

Results flagged for a closer look

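In 4 of the 31 genes named for their unmatched or called length, the sign of the difference between het and KO at E16.5 was opposite to that at each of the 3 other stages. These genes were chosen by their E16.5 lengths, and the share of such genes among all called genes is not given here. The difference between the stages was not tested, since each stage has 1 list per genotype. Csmd1 had 164.3 kb more called length in het at E16.5, and 151.3 kb more with the het list alone cut to the size of the KO list. Its het minus KO difference was -21.2, -80.1 and -143.5 kb at E13.5, P0 and P3. Nrg3 had 97.2 kb more in het at E16.5, against -36.6, -29.9 and -28.4 kb at those stages. Dpp10 had 71.7 kb more in het, against -0.891, -71.7 and -91.7 kb. Snrpn had 6.67 kb more in het (3.67 kb with the same cut of the het list), against -26.5, -4.12 and -12.5 kb. The KO lists of the 3 other stages hold more peaks than the het lists, and the part of list size in these signs was not tested.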

How the results depend on the processing

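Several settings left the counts of unmatched peaks within 1.5 times of those given. These were 50% of a peak's length in common, a 1 kb margin, and X and Y added. Another was the het list alone cut to the number of KO peaks, as described above. For het-only peaks, leaving out peaks of 1001 bp and a 5 kb margin also did so. KO-only peaks fell to 3035 with the 5 kb margin and to 3127 without peaks of 1001 bp, and the longer 50% of each list gave 4821 het-only and 2198 KO-only peaks. In each of these settings het-only peaks outnumbered KO-only peaks. The share near a shared peak followed its limit: 6.80% of het-only and 6.42% of KO-only peaks at 2 kb, and 53.9% and 50.5% at 10 kb. It was 33.0% and 35.9% when measured to the other list, and 26.6% and 24.2% without peaks of 1001 bp. The genic share was 35.5% (het-only), 40.8% (KO-only) and 33.9% (shared) with all genes of the table, 25.6% of het-only and 18.6% of shared base pairs, and 26.7% of shared peaks by any base and 30.0% of those of 1001 bp. KO-only peaks were the most genic in every setting tried. With 50% of a peak covered required, peaks called at no other stage were 42.0% of het-only, 33.5% of KO-only and 7.52% of shared peaks. Closing gaps of up to 1 kb changed nothing, since the lists hold none. Of the 31 genes named for their unmatched or called length, Marchf1 reversed (-4.65 kb). Of the 26 gene lists, the Zfp (-12.9 kb) and cytochrome P450 genes (-3.06 kb) reversed. Each did so with the het list alone cut, which takes length from het only. No paired analysis was possible because there is 1 list per group and it carries no replicate number, and no replicate could be left out. The lists give no score, so no stricter threshold could be set, and read depth limits every count to an unknown degree.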

Other observations

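The X chromosome, outside the comparison above, did not share the autosomal order. It held 335 het-only peaks among 4053 het peaks (8.27%, 7.46 to 9.15%) and 434 KO-only peaks among 4109 KO peaks (10.6%, 9.66 to 11.5%). That is 0.772 het-only peaks per KO-only peak, against 1.73 to 2.56 on the autosomes. The called length in KO was 1.03 times that in het on X, and 0.904 to 0.946 times on the autosomes. Of 966 protein-coding genes on X, 75 had more length in het and 82 in KO. Hsf3, of the heat shock factor family, had 14.0 kb in het and 7.29 kb in KO. Il1rapl1, a synaptic receptor gene, had 27.5 and 33.1 kb, Dach2 11.99 and 17.3 kb, and Dmd, the dystrophin gene, 104 and 109 kb. The Y chromosome held 41 het and 46 KO peaks, too few for a comparison. These values have no replicate and no test.

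The position along a chromosome moved little with the share of unmatched peaks. With each autosome divided into 10 equal parts between its first and last peak, the share of het-only peaks was lowest in the first part, at 11.7%, and highest in the eighth, at 15.7%. For KO-only peaks it was 5.34% in the first part and 7.43% in the ninth. Long noncoding RNA genes outside protein-coding bodies held 7.44% of het-only, 7.43% of KO-only and 7.20% of shared het peaks, which differ by less than their counting intervals.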
